A study of Mus musculus with 16 samples.

Results

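The epithelium of the embryonic mouse parotid gland was compared with the mesenchyme around it, by bulk RNA sequencing of 4 libraries of each layer. These 8 libraries were taken by their column names from the raw count table and are 8 of the 16 in the series and the other 8 are the same layers of the submandibular gland and enter only where the glands are compared. All tissue came from wild-type ICR mice, an outbred strain, at embryonic day 13. Neither layer carried a transgene or received a treatment, per the labels. The layers were separated by dissection, the labels call the libraries of a group independent biological replicates, and the number of embryos behind a library was not stated there. The design text also speaks of glands kept in culture, so whether the RNA saw a period in culture cannot be told from the labels.

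Salivary glands form by branching morphogenesis, in which an epithelial bud grows into condensed mesenchyme and divides into lobules. Each layer depends on the other. Mesenchymal growth factors, FGF10 above all, drive the growth and clefting of the end buds, and epithelial signals act back on the mesenchyme, its vessels and its nerves. The parotid arises in the cheek, near the oral epithelium, and its secretory cells are serous in the adult. Which genes the layers held apart at this stage is the question that the comparison addresses.

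Gene counts summed to 21307466 to 23885698 in the epithelium libraries and to 19080629 to 25846015 in the mesenchyme libraries. Levels are given as CPM, a gene's count scaled to a fixed total per library after TMM scaling. CPM is not corrected for transcript length, so levels are compared between layers for 1 gene and not between genes. Fold changes are epithelium over mesenchyme on the log2 scale, so negative values are higher in mesenchyme. A gene is counted as different where edgeR's quasi-likelihood test gave a Benjamini-Hochberg adjusted p under 0.05. The standard error (SE) of a fold change is approximate, namely its absolute log2 value divided by the square root of that test's F statistic. In bulk tissue, fewer cells that carry a transcript and less transcript per cell cannot be told apart.

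Defining markers followed the labels in every library. Of 12 epithelial markers, all 12 were higher in epithelium, with log2 fold changes of 4.65 to 8.72, and their summed level in mesenchyme was 0.844% of that in epithelium. The cadherin of epithelial adherens junctions, Cdh1, measured 284, 409, 447 and 399 CPM in epithelium and 5.26, 0.767, 0.237 and 0 CPM in mesenchyme. Of 12 mesenchymal markers, all 12 were higher in mesenchyme, and their sum in epithelium was 1.46% of that in mesenchyme. Dcn, the matrix proteoglycan decorin, measured 7.89, 0.985, 25.4 and 12.4 CPM in epithelium against 1790, 2309, 2115 and 2854 CPM in mesenchyme. Mesenchyme replicate 1 held the highest sum of the epithelial markers, 36.4 CPM against 13.6 to 19.7 CPM in the other mesenchyme libraries. Epithelium replicates 3 and 4 held the highest sums of the mesenchymal markers, 523.8 and 498.8 CPM against 294.9 and 264.5 CPM. Levels are therefore given for genes whose low layer sits near these shares of the high layer, for some beside a fold change. The part of carried-over tissue in these levels and fold changes was not tested. Without mesenchyme replicate 1, the log2 fold change of Cdh1 was 10.26 in place of 8.03, and without epithelium replicate 3 that of Dcn was -8.32 in place of -7.60.

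**Figure D1:**
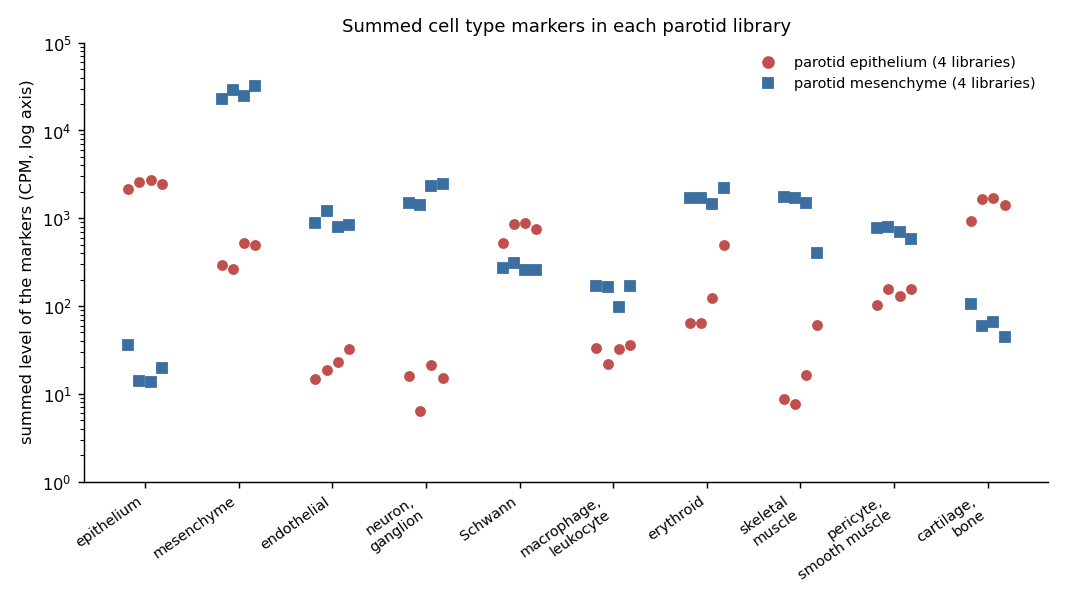
Summed CPM of each marker list (log axis) in the 4 epithelium libraries (circles) and the 4 mesenchyme libraries (squares) of the parotid gland. The epithelial and the mesenchymal markers stood at 0.844% and 1.46% of their own layer's level in the other layer, macrophage and erythroid markers stood at 20.6% and 10.7% of the mesenchymal level in epithelium, and the muscle markers were lowest in mesenchyme replicate 4.

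Other cell types counted mostly with the mesenchyme. Endothelial markers, 17 of 17 higher in mesenchyme, summed to 22.2 ± 7.51 CPM in epithelium and 930.1 ± 189.8 CPM in mesenchyme (mean ± SD, n = 4). Neuron and ganglion markers summed to 14.6 ± 6.16 and 1924.2 ± 537.0 CPM. Skeletal muscle markers summed to 23.4 ± 25.3 and 1332.8 ± 628.1 CPM, with mesenchyme replicate 4 at 406 CPM and the other 3 mesenchyme libraries at 1485.4 to 1748.0 CPM. Macrophage and leukocyte markers summed to 30.8 ± 6.34 CPM in epithelium, 20.6% of the mesenchymal 149.3 ± 34.7 CPM, and erythroid markers to 187.7 ± 210.8 CPM, 10.7% of the mesenchymal level. So blood and immune transcripts were present in the epithelium libraries at larger shares than the fibroblast transcripts, and epithelium replicate 4 held 501.2 CPM of the erythroid sum against 63.4 to 122.2 CPM in the others. The Schwann cell list split by gene. Sox10, Mbp, Ngfr and Erbb3, of which Sox10 is also a factor of salivary epithelium, were higher in epithelium, while the glial genes Foxd3 and Cdh19 were higher in mesenchyme.

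Most of the transcriptome differed between the layers. Of 18191 genes tested, 64.9% were called, 5712 (31.4%) higher in epithelium and 6092 (33.5%) higher in mesenchyme, and the median log2 fold change of all genes was -0.004. The 2 sides differed in size. At least 2-fold differences were called for 2521 genes (13.9%) higher in epithelium and 4066 (22.4%) higher in mesenchyme, at least 8-fold ones for 648 and 1816, and at least 128-fold ones for 104 and 241. Genes called at least 2-fold higher held 16.8% of the epithelial and 24.2% of the mesenchymal CPM. Expression was largely shared: 12785 genes reached a mean of 1 CPM in both layers, out of 13671 in epithelium and 14571 in mesenchyme. Only 19 genes of at least 1 CPM in epithelium had no count in any mesenchyme library, against 48 the other way. For the gene lists below, the counts are of members past a filter on low counts. A member expressed in 1 layer passes through that layer, so the counts and medians describe the lists. Every such count is to be read beside the 31.4% and 33.5% of all genes called in each direction.

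The largest folds in epithelium included a hormone subunit, a kinase, a matrix protease and an anion channel. Gphb5, which encodes the beta subunit of the glycoprotein hormone thyrostimulin, measured 63, 11.3, 27.8 and 66.5 CPM in epithelium and 0, 0.11, 0.0395 and 0 CPM in mesenchyme. With 3 counts in all in mesenchyme the ratio was 1190, with a 95% exact counting interval of 406 to 5760. Ripk4, a kinase of keratinocyte differentiation, measured 139.6, 185, 199 and 170.3 CPM against 1.02, 0.164, 0 and 0.0467 CPM. Both genes, like the others given for large folds, were taken from genes whose libraries did not overlap between layers, although Gphb5 varied within epithelium. Their log2 fold changes rose from 9.98 to 10.98 for Gphb5 without mesenchyme replicate 2 and from 9.25 to 11.33 for Ripk4 without mesenchyme replicate 1. Adamts18, a secreted metalloprotease, was tighter at 193, 170.1, 191 and 201 CPM, against 0.644, 0.493, 0.0395 and 0.187 CPM, with a log2 fold change of 9.20 ± 0.30 (SE, adjusted p = 6.36e-13). The chloride channel Slc26a9 measured 49.7, 92.4, 67.1 and 59 CPM against 0.215, 0.0548, 0 and 0.233 CPM. Cd177, a surface protein best known from neutrophils, averaged 18.9 ± 4.15 CPM in epithelium with 2 counts in all in mesenchyme, a ratio of 793 (counting interval 219 to 6560).

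Among the mesenchymal genes with the largest folds were secreted and membrane proteins, some of them known from nerve tissue. Fstl5, a secreted follistatin-like protein, measured 27.4, 34, 73 and 76.9 CPM in mesenchyme and had 1 count in all 4 epithelium libraries, a ratio of 4800 (counting interval 862 to 190000). Vstm2a, a secreted immunoglobulin-domain protein, measured 154, 340.4, 262 and 372 CPM against 0.466, 0.0938, 0.848 and 0.53 CPM, a log2 fold change of -9.17 ± 0.42. Both were nearly absent from epithelium, and both varied more than 2-fold between mesenchyme libraries. Col5a3, a chain of collagen V, measured 55.1, 109.6, 63.7 and 124 CPM in mesenchyme and at most 0.193 CPM in epithelium. Slc5a7, the choline transporter of cholinergic neurons, measured 6.17, 10.8, 8.53 and 22.3 CPM in mesenchyme with 1 count in epithelium (ratio 1040, counting interval 187 to 41300). The vasopressin receptor Avpr1a had 2 counts in epithelium and 14.9 ± 5.77 CPM in mesenchyme (ratio 623, counting interval 172 to 5150). Lingo2 (93.6 ± 26.4 CPM) and Luzp2 (43.4 ± 8.74 CPM) were at 0.161 ± 0.081 and 0.0821 ± 0.0724 CPM in epithelium. The neuron markers given above were higher in the same layer, with sums of 1493.4, 1427.4, 2350.2 and 2425.6 CPM in the mesenchyme libraries. Their part in these genes was not tested.

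**Figure D2:**
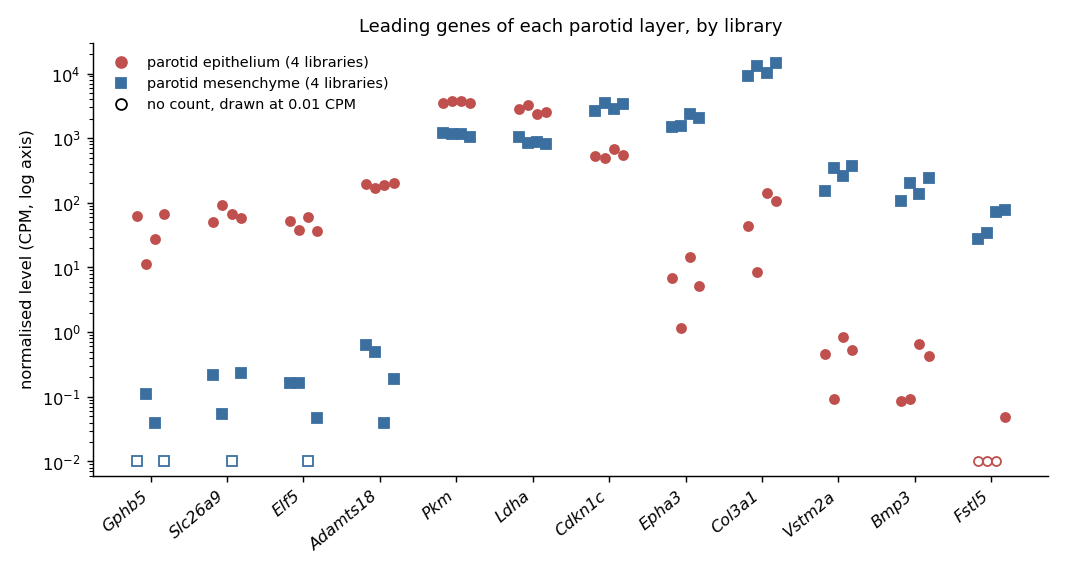
Normalised level in CPM (log axis) of 12 genes in each of the 4 epithelium libraries (circles) and 4 mesenchyme libraries (squares), with open symbols at 0.01 CPM for libraries with no count. The symbols of the layers stand apart for each gene, which the choice of genes required. The gap is narrowest for Pkm and Ldha and widest for Fstl5, which had 1 count in the epithelium libraries.

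The largest differences in CPM between the layers included glycolytic enzymes on the epithelial side and collagens on the mesenchymal side. Pkm, the pyruvate kinase of growing tissues, measured 3492, 3808, 3712 and 3562 CPM in epithelium and 1221, 1179, 1173 and 1045 CPM in mesenchyme (log2 fold change 1.66 ± 0.09, adjusted p = 7.47e-11). Ldha, lactate dehydrogenase, averaged 2743 ± 372 and 901 ± 109.7 CPM, and Eno1, enolase, 2193 ± 67.4 and 659.9 ± 76.6 CPM. The gene Cpm, which encodes the membrane enzyme carboxypeptidase M, averaged a level of 1039 ± 174 in epithelium and 10.8 ± 1.74 in mesenchyme, in the same unit. Col2a1, the collagen known from cartilage, was an epithelial gene here: it measured 569, 1209, 1219 and 994 CPM against 70.7, 35.1, 47.9 and 23.1 CPM (log2 fold change 4.50 ± 0.52, adjusted p = 2.83e-06). On the mesenchymal side Col3a1 measured 9231, 12921, 10363 and 14362 CPM against 43.2, 8.49, 141 and 108 CPM in epithelium, and Col1a1 averaged 4508 ± 646 against 45.3 ± 38.1 CPM. The fibroblast matrix protein Postn averaged 3699 ± 1454 CPM in mesenchyme and 51.1 ± 28 CPM in epithelium. Further leaders were the growth factor Ptn (2953 ± 732 against 302 ± 31 CPM), the cell cycle inhibitor Cdkn1c (3072 ± 421 against 564 ± 75.9 CPM), the imprinted membrane protein Dlk1 (2332 ± 309 against 67.2 ± 27.9 CPM), Itm2a (2189 ± 40.7 against 104 ± 13.1 CPM) and the ephrin receptor Epha3 (1858 ± 418 against 6.99 ± 5.71 CPM). In contrast to the collagens, Cdkn1c and Ptn kept a substantial level in every epithelium library.

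Transcription factors divided the layers sharply, with exceptions in both lists. Of 31 listed epithelial factors and splicing regulators 28 were tested, and 27 were higher in epithelium (median log2 fold change 6.31). Elf5, an ETS factor of glandular epithelium, measured 52.9, 37.5, 59.6 and 36.8 CPM against 0.161, 0.164, 0 and 0.0467 CPM. Its relative Elf3 averaged 63.4 ± 10.4 against 0.198 ± 0.154 CPM, and the homeobox factor Barx2 57.3 ± 11.9 against 0.277 ± 0.286 CPM. Ovol2, a repressor of mesenchymal genes in epithelia, averaged 13.5 ± 1.52 CPM with 2 counts in mesenchyme (ratio 562, counting interval 155 to 4650). Foxi3, a factor of ectodermal organs, had no count in mesenchyme and was at least 53.9-fold higher in epithelium, with the mesenchyme put at 3 counts in all. The list's uncalled member was Pitx1, at 175 ± 12.3 and 218 ± 63.4 CPM, with overlapping libraries (adjusted p = 0.104, and 0.0196 without mesenchyme replicate 2).

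Of 34 listed mesenchymal factors 33 were tested, and 25 were higher in mesenchyme (median -4.97). Barx1 measured 242, 176, 187 and 169 CPM in mesenchyme and 0.424, 0.0469, 1.13 and 0.482 CPM in epithelium (log2 fold change -8.53 ± 0.41, adjusted p = 9.12e-11, and -9.21 without epithelium replicate 3), so the sister genes Barx1 and Barx2 marked opposite layers. Tbx18 averaged 666 ± 174 against 2.22 ± 1.95 CPM, the LIM homeobox factor Lhx6 69.3 ± 7.8 against 0.269 ± 0.268 CPM and Osr2 434 ± 51.9 against 2.08 ± 1.66 CPM. The exceptions were 4 listed factors that were higher in epithelium. Pax9 measured 90.1, 113, 139.5 and 126 CPM in epithelium and 3, 2.47, 0.237 and 0.7 CPM in mesenchyme (log2 fold change 6.26 ± 0.78). Meis1 (325 ± 12.7 against 17 ± 6.5 CPM), Meis2 (473 ± 49.1 against 41.8 ± 2.24 CPM) and Foxp2 (58.9 ± 9.09 against 14.3 ± 2.9 CPM) went the same way. For each of them every epithelium library lay above every mesenchyme library. Snai2, a zinc finger repressor linked to epithelial-mesenchymal transition, did not pass the test, at 105 ± 6.62 and 98.4 ± 9.95 CPM (log2 fold change 0.09 ± 0.11, adjusted p = 0.469). Its functional relative Zeb2 did, at 225, 276, 307 and 354 CPM in mesenchyme against 1.53, 0.516, 1.08 and 2.07 CPM.

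Cell junction and polarity genes were predominantly epithelial. Of 19 tight junction genes 17 were higher in epithelium (median 4.17), as were 14 of 18 desmosome and adherens junction genes (median 3.14) and 20 of 24 polarity and apical trafficking genes (median 3.86). Ocln, a tight junction membrane protein, measured 40.1, 39.3, 44.2 and 34.5 CPM against 0.376, 0.329, 0.237 and 0 CPM. The claudin Cldn4 averaged 31.6 ± 6.57 against 0.25 ± 0.411 CPM, the desmosome plaque gene Pkp3 43.2 ± 9.17 against 0.21 ± 0.325 CPM and Dsp, desmoplakin, 55.9 ± 10.5 against 0.695 ± 0.905 CPM. Apical genes followed: the clathrin adaptor subunit Ap1m2 measured 105 ± 7.38 against 0.317 ± 0.319 CPM, the membrane protease St14 157 ± 26.9 against 0.607 ± 0.603 CPM, its inhibitor Spint1 69 ± 9.23 against 0.5 ± 0.383 CPM and the polarity protein Crb3 13.2 ± 1.22 against 0.105 ± 0.0771 CPM.

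Scaffold and catenin genes of the same junctions did not follow. Tjp1, which encodes ZO-1, was higher in mesenchyme at 136 ± 16.6 against 89.2 ± 21.5 CPM (log2 fold change -0.61 ± 0.16, adjusted p = 0.00311), with overlapping libraries. Jup, plakoglobin, and Ctnnd1, p120 catenin, did not pass the test, at 247 ± 63.4 against 207 ± 61.3 CPM and 24.5 ± 3.4 against 20.9 ± 2.6 CPM. Desmocollin Dsc3, a gene of stratified epithelia, was low in both layers and higher in mesenchyme, at 3.62 ± 1.6 against 1.52 ± 0.553 CPM, a call that was lost without epithelium replicate 3 (adjusted p = 0.0511) or mesenchyme replicate 2 (0.0741). Mesenchyme has its own cadherins. Cdh11 measured 1298, 1447, 1785 and 1930 CPM in mesenchyme and 19.5, 12.4, 22.7 and 17.6 CPM in epithelium (log2 fold change -6.48 ± 0.53), and Cdh2 and Cdh6 averaged 104 ± 17.5 and 40.9 ± 11.5 CPM against 2.46 ± 0.557 and 0.15 ± 0.119 CPM. Of the 10 genes in that list 8 were higher in mesenchyme (median -4.94), and Cadm1 (245 ± 21.6 against 17.8 ± 13.5 CPM) and Alcam (82.4 ± 20.4 against 32.5 ± 16.1 CPM) were higher in epithelium.

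Intermediate filaments divided the same way. Of 11 listed keratins 10 were tested and 9 were higher in epithelium (median 5.22). Taken by symbol, 19 keratins were tested: 12 were higher in epithelium, 2 in mesenchyme and 5 were not called (median 2.63). Krt8 and Krt18, the pair of simple epithelia, averaged 210.4 ± 16.4 and 224 ± 26.6 CPM in epithelium against 0.873 ± 0.645 and 1.26 ± 0.689 CPM. Krt14, a keratin of basal cells, measured 202, 145, 197 and 256 CPM against 6.76, 1.81, 0.118 and 1.26 CPM. Krt15 measured 67, 78.5, 118 and 94.5 CPM in epithelium and 18.4, 2.08, 0.0395 and 1.59 CPM in mesenchyme, where replicate 1, the library with the highest epithelial marker sum, stood above the others. Without that library the log2 fold change of Krt15 was 6.27 in place of 4.06, and that of Krt14 7.65 in place of 6.39. Krt23 had no count in mesenchyme and was at least 117-fold higher in epithelium, at 4.21 ± 1.06 CPM. Krt4, a keratin of oral mucosa, had 2 counts in epithelium and 6 in mesenchyme. Vim, vimentin, measured 1039, 951, 1110 and 1455 CPM in mesenchyme against 41.8, 56.7, 57.4 and 62.1 CPM. In the list of contractile and mesenchymal cytoskeleton 12 of 15 were higher in mesenchyme (median -2.08), among them Acta2 (209 ± 93.3 against 7.79 ± 4.92 CPM) and Des (105 ± 45 against 0.253 ± 0.506 CPM). Both were lowest in mesenchyme replicate 4, at 75.1 and 41.1 CPM, the library with the lowest muscle sum. Tpm1 did not pass, at 345 ± 28.8 and 371 ± 122 CPM, but did without mesenchyme replicate 4 (log2 fold change -0.33, adjusted p = 0.0224). For Des, all counts in epithelium came from replicate 4.

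Promoters of 4 of these epithelial genes are shown because they hold a motif that a transcription factor of the opposite layer is known to bind. ZEB and SNAI proteins repress epithelial genes through the E-box CAGGTG, which reads CACCTG on the other strand. Zeb1, from the marker list, averaged 1.63 ± 0.967 CPM in epithelium and 120.3 ± 13.6 CPM in mesenchyme, and Zeb2 differed as given above. The SNAI gene Snai2 was not called, at 105 ± 6.62 CPM in epithelium and 98.4 ± 9.95 CPM in mesenchyme. The windows are the 250 bases before the annotated start, from RefSeq on GRCm38.p6, written 5′ to 3′ on the gene's strand with the motif in capitals. They lie at chr17:87635729-87635978 on the plus strand for Epcam, chr17:23679115-23679364 on the plus strand for Cldn6, chr3:88548280-88548529 on the minus strand for Rab25 and chr9:21312334-21312583 on the minus strand for Ap1m2.
Epcam: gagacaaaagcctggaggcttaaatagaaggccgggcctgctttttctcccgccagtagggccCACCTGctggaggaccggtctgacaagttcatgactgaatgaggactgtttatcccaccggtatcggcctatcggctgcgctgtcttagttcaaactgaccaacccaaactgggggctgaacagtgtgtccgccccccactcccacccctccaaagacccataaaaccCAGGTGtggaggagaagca
Cldn6: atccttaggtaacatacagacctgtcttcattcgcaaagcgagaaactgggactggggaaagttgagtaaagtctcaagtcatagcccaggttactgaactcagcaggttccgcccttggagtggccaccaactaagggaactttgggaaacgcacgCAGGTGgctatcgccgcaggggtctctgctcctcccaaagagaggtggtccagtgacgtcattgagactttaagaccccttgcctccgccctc
Rab25: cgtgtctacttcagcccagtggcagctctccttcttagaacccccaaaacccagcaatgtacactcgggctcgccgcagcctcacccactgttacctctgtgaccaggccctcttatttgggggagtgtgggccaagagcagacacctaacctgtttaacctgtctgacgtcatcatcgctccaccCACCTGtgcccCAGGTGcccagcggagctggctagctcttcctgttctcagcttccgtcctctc
Ap1m2: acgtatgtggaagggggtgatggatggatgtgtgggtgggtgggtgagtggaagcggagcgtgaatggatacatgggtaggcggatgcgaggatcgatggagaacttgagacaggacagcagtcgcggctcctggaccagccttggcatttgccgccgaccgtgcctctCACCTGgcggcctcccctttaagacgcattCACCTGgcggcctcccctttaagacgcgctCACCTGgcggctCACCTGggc
Matches numbered 2 in Epcam, 1 in Cldn6, 2 in Rab25 and 4 in Ap1m2, and the nearest began 19, 93, 53 and 9 bases before the start. The 4 genes, chosen after their values were seen, averaged 732 ± 75.1, 209 ± 10.4, 12.2 ± 2.5 and 105 ± 7.38 CPM in epithelium and 11.8 ± 4.69, 0.536 ± 0.7, 0.144 ± 0.262 and 0.317 ± 0.319 CPM in mesenchyme. Searching both strands, CAGGTG was found in 17.1% of the 27025 promoters of this length in the table, and in 15.6% of the 12252 of tested genes. The 4 promoters were picked for holding the motif, so they do not show how often epithelial genes hold it. A comparison between the promoters of epithelial and mesenchymal genes was void, since 68.7% and 64.0% of the genes at least 32-fold higher in each layer had an entry. A match is a stretch of letters and does not show a bound site.

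Matrix genes separated by kind of matrix. Of 28 genes of interstitial collagen and matrix 26 were higher in mesenchyme (median -4.95), with sums of 36472.2 ± 6446.8 CPM in mesenchyme and 2076.0 ± 230.3 CPM in epithelium. Col6a3, a collagen VI chain, measured 559.7, 671, 667 and 987 CPM against 1.61, 0.235, 9.24 and 3.81 CPM, and the proteoglycan Lum averaged 1413 ± 323 against 10.6 ± 10.6 CPM. The member higher in epithelium was Vcan, the large proteoglycan versican, at 539.6, 412, 342 and 377 CPM against 253, 248, 219 and 258 CPM (log2 fold change 0.77 ± 0.18, adjusted p = 0.00101). Col14a1 did not pass, at 199 ± 32.7 and 259.9 ± 49.7 CPM (adjusted p = 0.0628, and 0.0325 or 0.0322 without epithelium replicate 2 or mesenchyme replicate 1). Without epithelium replicate 3 the log2 fold change of Col6a3 was -8.58 in place of -7.60.

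Genes of the basement membrane, which lies between the layers, were called in both directions at shares near those of all genes. Of 28 listed genes 27 were tested. Of these 9 were higher in epithelium, 10 in mesenchyme and 8 were not called (median 0.12), against 31.4% and 33.5% of all genes. Chains of one protein family took opposite sides. Col4a6 measured 167, 233, 230.3 and 222 CPM in epithelium and 1.07, 0.438, 0.237 and 0.187 CPM in mesenchyme (log2 fold change 8.84 ± 0.37, and 9.56 without mesenchyme replicate 1), and its neighbour and partner Col4a5 averaged 265 ± 36.7 against 11.7 ± 1.46 CPM. The laminin chain Lama5 averaged 183 ± 46.2 CPM in epithelium against 4.76 ± 1.69 CPM, and Lama1 23.6 ± 7.94 against 3.8 ± 2.12 CPM. The chain Lama4, found in vessel walls, measured 372, 513, 447 and 547 CPM in mesenchyme against 9.41, 6.19, 11.1 and 11.3 CPM, and the laminin linker Nid1 averaged 469 ± 89 against 24.4 ± 5.78 CPM. The laminin chains Lamb1 and Lamc1, shared by most laminins, were not called, at 300.3 ± 45.3 against 366 ± 51.2 CPM and 302 ± 58.5 against 285 ± 30.5 CPM. Agrn and Col18a1 were not called either, although Col18a1 was without mesenchyme replicate 2 (log2 fold change 0.68, adjusted p = 0.0294). Endothelial markers were higher in the same layer as Lama4, with sums of 887.9, 1208.7, 793.0 and 830.6 CPM in the mesenchyme libraries. Their part in Lama4 was not tested.

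Enzymes of the matrix were mostly higher in mesenchyme, while its receptors were called in both directions. Of 22 proteases and inhibitors 18 were higher in mesenchyme (median -3.38), and the one that was higher in epithelium was Adamts18. Adam12 (190.3 ± 36.9 against 0.813 ± 0.638 CPM), the collagen crosslinker Lox (546 ± 79.3 against 3.74 ± 2.91 CPM), the membrane protease Mmp16 (289 ± 60.8 against 4.79 ± 1.8 CPM) and the inhibitor Timp3 (512 ± 151 against 13.5 ± 2.88 CPM) were mesenchymal. Among 17 integrin chains 6 were higher in epithelium and 8 in mesenchyme, against 31.4% and 33.5% of all genes. The laminin-binding chains Itgb4 and Itga3 averaged 123 ± 32.8 and 64.3 ± 13.7 CPM in epithelium against 2.93 ± 0.99 and 3.55 ± 1.08 CPM. The fibronectin receptor chain Itga5 averaged 386 ± 78.5 CPM in mesenchyme against 57.4 ± 10.2 CPM, and the collagen receptor chain Itga1 19.2 ± 4.62 against 0.19 ± 0.128 CPM. Itga8 was not called, at 98.3 ± 25.6 and 65.1 ± 11.5 CPM (adjusted p = 0.0586, and 0.0484 or 0.0347 without epithelium replicate 2 or 3). Of 20 heparan sulfate genes 4 were higher in epithelium and 10 in mesenchyme, against the same 31.4% and 33.5%. The 3-O-sulfotransferases Hs3st3a1 and Hs3st3b1, which modify heparan sulfate, averaged 13.5 ± 3.85 and 97.3 ± 16.8 CPM in epithelium against 1.12 ± 0.433 and 20.8 ± 4.93 CPM. The sulfatase Sulf1 went the other way, at 147, 101, 101 and 38.1 CPM in mesenchyme against 1.1, 3.38, 3.54 and 4.82 CPM. The core protein Sdc1 was not called, at 254 ± 23.2 and 283 ± 23.8 CPM.

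**Figure D3:**
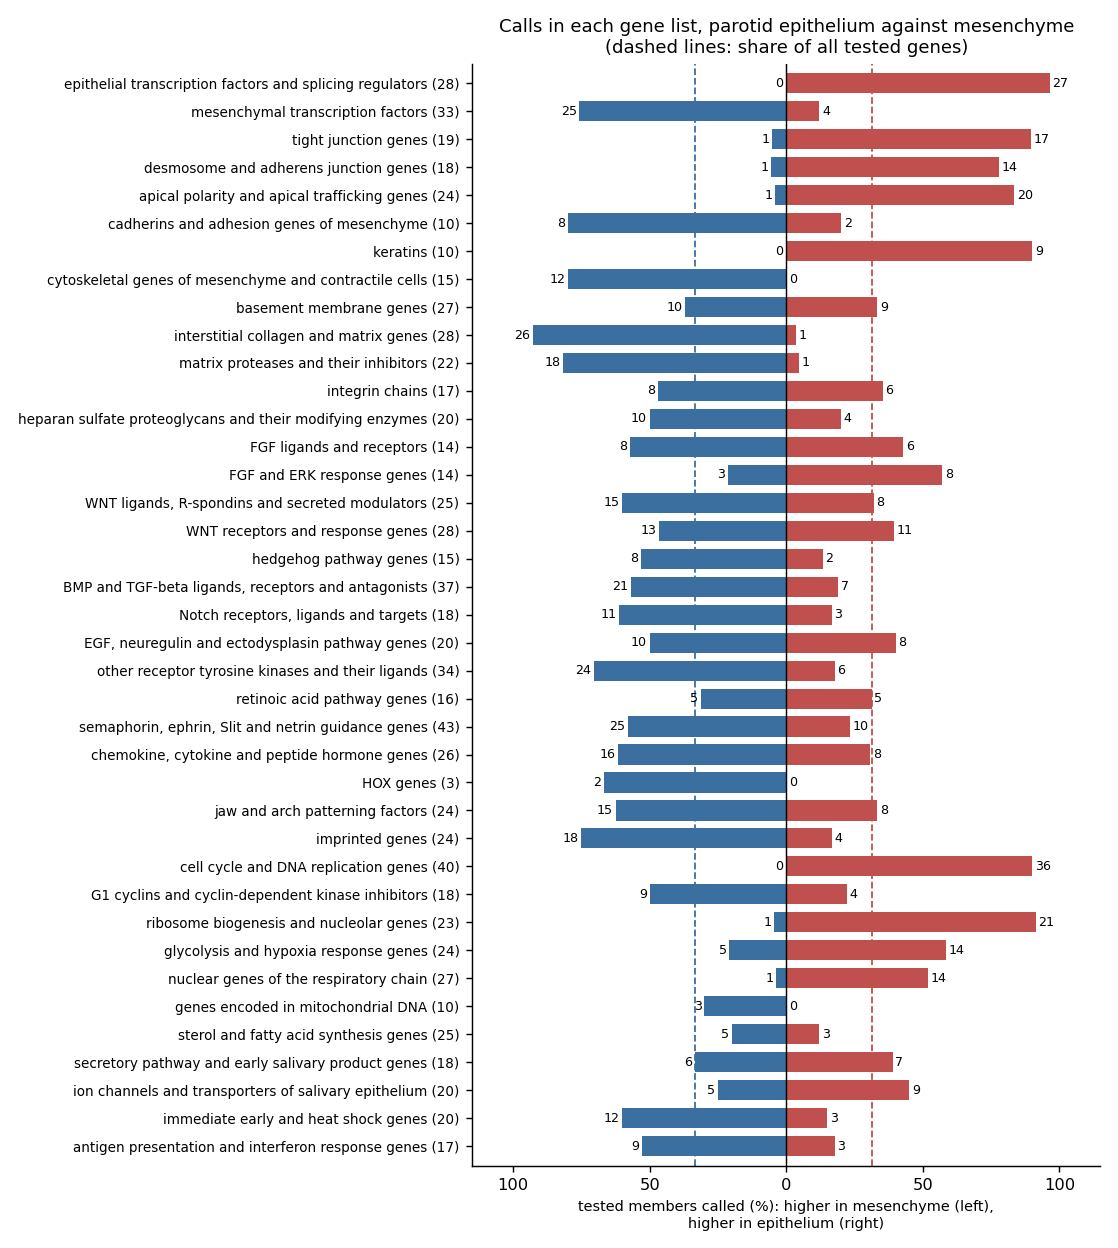
Share of the tested members of each gene list called higher in mesenchyme (left) or in epithelium (right), with the number called at the end of each bar and the number tested in brackets. The dashed lines mark the 33.5% and 31.4% of all tested genes called in each direction. Junction, keratin, cell cycle and ribosome lists lie far to the right, matrix lists far to the left and basement membrane genes near both dashed lines.

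In the FGF pathway, the mesenchymal ligands FGF7 and FGF10 and their receptor gene Fgfr2 were higher in opposite layers, while other ligands were epithelial. Of 16 listed ligands, receptors and binding proteins 14 were tested. Here 6 were higher in epithelium and 8 in mesenchyme, against 31.4% and 33.5% of all genes. Fgfr2, the receptor of FGF7 and FGF10, measured 208, 282, 278 and 256 CPM in epithelium and 33.8, 47.1, 32.8 and 36.4 CPM in mesenchyme (log2 fold change 2.77 ± 0.15, adjusted p = 9.12e-11). Counts were not split by isoform, so the epithelial and mesenchymal splice forms of this receptor are summed. The ligand Fgf7 averaged 21.5 ± 3.26 CPM in mesenchyme against 0.808 ± 0.775 CPM, and Fgf10, the ligand of salivary budding, 456 ± 127 against 1.21 ± 1.06 CPM. The epithelium had ligands of its own. Fgf1 averaged 36.1 ± 3.08 against 3.29 ± 0.536 CPM, Fgf9 30.1 ± 4.06 against 3.11 ± 1.93 CPM and Fgf20 1.93 ± 0.605 CPM with 3 counts in mesenchyme (ratio 53.6, counting interval 18 to 263). Fgfbp1, a secreted carrier of FGFs, averaged 34.3 ± 10.7 against 0.328 ± 0.164 CPM. Fgfr1 was modestly higher in epithelium, at 262 ± 41 against 177 ± 6.65 CPM. Fgfr4 measured 36.2, 36.8, 25.1 and 9.38 CPM in mesenchyme, lowest in replicate 4, where the muscle sum was also lowest; the part of muscle in it was not tested.

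Transcriptional targets of FGF and ERK signalling were on balance epithelial, with 8 of 14 higher in epithelium, 3 in mesenchyme and a median of 0.74. Etv5, a PEA3-group factor induced by FGF, measured 547, 886, 741 and 698 CPM against 96.4, 112, 87.1 and 95.8 CPM, and Etv4 averaged 163 ± 35.7 against 20.8 ± 9 CPM. The feedback inhibitors Spry1 (355 ± 21.4 against 108 ± 34.7 CPM) and Dusp6 (646 ± 62.4 against 227 ± 22.7 CPM) were higher in epithelium. Another inhibitor of the same family, Spry4, was higher in mesenchyme, at 99.7, 107, 93.2 and 146 CPM against 13.7, 21.9, 11.8 and 13.7 CPM (log2 fold change -2.87 ± 0.21).

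WNT ligands were split between the layers by gene. Of 30 listed ligands and modulators 25 were tested, 8 higher in epithelium and 15 in mesenchyme (median -3.69). Wnt6 measured 44.7, 50.8, 68.1 and 54.3 CPM in epithelium and 2.04, 0.767, 0.158 and 0.14 CPM in mesenchyme. Wnt10a averaged 9.89 ± 2.26 against 0.185 ± 0.208 CPM and Wnt5b 104 ± 33.9 against 10.1 ± 4.45 CPM. R-spondin 2, encoded by Rspo2, which amplifies WNT signalling, measured 40.3, 44.1, 81.1 and 44.5 CPM in mesenchyme and at most 0.241 CPM in epithelium (log2 fold change -8.76 ± 0.42). Wnt2 averaged 26.4 ± 8.81 against 0.182 ± 0.127 CPM and the secreted inhibitor Sfrp2 791 ± 57 against 27.4 ± 8.2 CPM. Among 28 receptors and response genes 11 were higher in epithelium and 13 in mesenchyme (median -0.22), against 31.4% and 33.5% of all genes. The WNT targets Sp5 and Rnf43, the second of which is a negative feedback ligase, averaged 56.8 ± 10.8 and 62 ± 11.1 CPM in epithelium against 0.477 ± 0.43 and 1.2 ± 0.256 CPM. Lef1 and Lgr5, also known as targets, went the other way, at 23.8 ± 6.65 and 24.9 ± 14.6 CPM in mesenchyme against 2.47 ± 0.809 and 1.78 ± 1.06 CPM. Axin2, often used as a general target, did not pass the test, at 17.1 ± 5.2 and 20 ± 3.93 CPM (log2 fold change -0.22 ± 0.22, adjusted p = 0.396). The list thus held genes of each direction and no single target stood for the rest.

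Among 37 BMP and TGF-beta genes 7 were higher in epithelium and 21 in mesenchyme (median -1.04). Bmp7 measured 156, 222, 236 and 210.3 CPM in epithelium and 18.3, 28.5, 27.2 and 19.1 CPM in mesenchyme, while Bmp4 averaged 14.7 ± 2.44 CPM in mesenchyme against 0.295 ± 0.389 CPM. The antagonists also differed in side. Fst, follistatin, measured 267, 338, 343 and 523 CPM in mesenchyme and 3.6, 2.35, 3.87 and 3.85 CPM in epithelium, whereas Nog, noggin, averaged 23.2 ± 0.99 CPM in epithelium against 3.75 ± 1.91 CPM. Bmp3, a family member that opposes BMP signalling, measured 106, 203, 135 and 242 CPM in mesenchyme against 0.0848, 0.0938, 0.66 and 0.434 CPM. The activin receptor Acvr2b was higher in epithelium, at 84.3 ± 12.6 against 17.3 ± 2.14 CPM.

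More hedgehog and Notch genes were called higher in mesenchyme than in epithelium, where 33.5% and 31.4% of all genes were called. Of 17 listed hedgehog genes 15 were tested, with 2 higher in epithelium and 8 in mesenchyme (median -1.13); Shh and Ihh were below the count filter. The target Gli1 averaged 15.8 ± 3.57 CPM in mesenchyme against 0.18 ± 0.274 CPM, while the receptor gene Ptch1, also a target, was level at 15.2 ± 1.07 and 15.1 ± 1.43 CPM, and the transducer Smo was not called at 204 ± 20.8 and 183 ± 15.5 CPM (adjusted p = 0.136, and 0.0284 without epithelium replicate 1). The count higher in epithelium was 1 without epithelium replicate 2 or without any one of mesenchyme replicates 2, 3 and 4. Among 18 Notch genes 3 were higher in epithelium and 11 in mesenchyme (median -1.22). Their summed level was nearly equal, at 686.6 ± 117.2 CPM in epithelium and 744.7 ± 66.4 CPM in mesenchyme. The ligand Jag2 measured 110.1, 187, 229 and 223 CPM in epithelium against 13, 14.1, 8.13 and 8.87 CPM, and the targets Hes1 (91.4 ± 12.5 against 36.7 ± 4.89 CPM) and Hey1 (76.1 ± 13.6 against 17.4 ± 5.07 CPM) were also epithelial. Notch1 was not called, at 68.2 ± 22 and 63 ± 9.69 CPM. Notch2 (112 ± 28.2 against 20.6 ± 3.71 CPM) and the ligand Dll4 of arterial endothelium (12 ± 3.76 against 0.0682 ± 0.0457 CPM) were mesenchymal. All 17 endothelial markers were higher in the same libraries, and their part in the Notch list was not tested.

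Ectodysplasin signalling, which is needed for salivary glands, teeth and hair, had ligand and receptor in opposite layers. The ligand Eda measured 24.5, 38, 26.1 and 54.6 CPM in mesenchyme and 4.07, 2.44, 3.25 and 3.42 CPM in epithelium. Its receptor Edar measured 36.3, 33.2, 37.7 and 38 CPM in epithelium and 0.268, 0.384, 0.434 and 0.14 CPM in mesenchyme (log2 fold change 6.85 ± 0.26, adjusted p = 2.49e-12). Ligand and receptor did not overlap between layers, in opposite directions. In the EGF, neuregulin and ectodysplasin list of 20 genes 8 were higher in epithelium and 10 in mesenchyme, against 31.4% and 33.5% of all. The neuregulin Nrg1 averaged 79.5 ± 9.43 CPM in mesenchyme against 1.31 ± 0.458 CPM, and its receptor Erbb3 measured 154, 309, 230.1 and 223 CPM in epithelium against 62.2, 50.2, 49.3 and 11.6 CPM. The EGF receptor gene Egfr was higher in mesenchyme, at 107, 112, 171 and 129 CPM against 41.8, 33.2, 33.9 and 34.2 CPM (log2 fold change -1.86 ± 0.21). Its ligand Tgfa was epithelial at 16.1 ± 5.31 against 0.614 ± 0.598 CPM, and its ligand Areg mesenchymal at 6.6, 6.79, 11.9 and 32 CPM against at most 0.236 CPM.

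Among 34 other receptor tyrosine kinase genes 6 were higher in epithelium and 24 in mesenchyme (median -1.87). The ligand Pdgfa measured 286, 360.3, 355 and 305 CPM in epithelium and 24.3, 23, 16.2 and 6.02 CPM in mesenchyme, opposite to its receptor Pdgfra (4.52 ± 2.77 against 482 ± 59 CPM). The neurturin gene Nrtn, a factor for parasympathetic nerves, averaged 75.8 ± 12.8 CPM in epithelium against 5 ± 0.971 CPM, and its receptor Gfra2 25 ± 4.87 CPM in mesenchyme against 0.252 ± 0.17 CPM. The neuron marker sum was high in the same mesenchyme libraries and its part in Gfra2 was not tested. Hgf and its receptor Met, a pair often found on opposite sides of an epithelium, were both higher in mesenchyme: Met measured 145, 151, 218 and 189.5 CPM against 29, 31.3, 24.5 and 25.3 CPM (log2 fold change -2.68 ± 0.20), and Hgf averaged 16.1 ± 3 against 0.269 ± 0.224 CPM. Igf1 averaged 398 ± 72.9 CPM in mesenchyme against 3.12 ± 3.96 CPM, and its receptor Igf1r was not called, at 71.2 ± 15.9 in epithelium and 89.4 ± 6.7 CPM in mesenchyme (adjusted p = 0.0583, and 0.0116 without epithelium replicate 2).

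A fixed list of 95 ligand and receptor pairs put these cases together. In 14 pairs the ligand was higher in mesenchyme and the receptor in epithelium, in 9 the reverse held, in 36 both were higher in mesenchyme and in 6 both were higher in epithelium. In 25 pairs at least one gene was not called and in 5 at least one was not tested. Of 78 ligands tested 55 were higher in mesenchyme and 16 in epithelium (median log2 fold change -2.09), and of 73 receptors 42 and 19 (median -1.06), against 33.5% and 31.4% of all genes. Pairs share genes, so they are not independent. Beyond the pairs above, the mesenchyme-to-epithelium class held Cxcl12 with Cxcr4 (714 ± 89.7 CPM of ligand in mesenchyme, 11.5 ± 4.9 CPM of receptor in epithelium) and the tenascin gene Tnc with the integrin chain Itga9 (94 ± 27.2 and 401 ± 36.2 CPM). It also held Vip, which had no count in epithelium and was at least 13.5-fold higher in mesenchyme, with its receptor Vipr1. The call of Vip was lost when any one of the 8 libraries was left out, with adjusted p of 0.0542 to 0.093. The reverse class held Pthlh with Pth1r (27.7 ± 6.4 CPM of ligand in epithelium, 159 ± 20.5 CPM of receptor in mesenchyme), Edn1 with Ednra and the cytokine gene Il33 with Il1rl1. Il33 measured 190.1, 66.4, 189 and 184 CPM in epithelium and at most 0.912 CPM in mesenchyme. The receptor gene Il1rl1 was low throughout, at 0.857 ± 0.303 CPM in mesenchyme with 2 counts in epithelium (ratio 37.9, counting interval 10.1 to 319). Cxcl12 also has the scavenger receptor Ackr3, which was mesenchymal at 45.1 ± 9.62 against 0.892 ± 0.481 CPM.

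**Figure D4:**
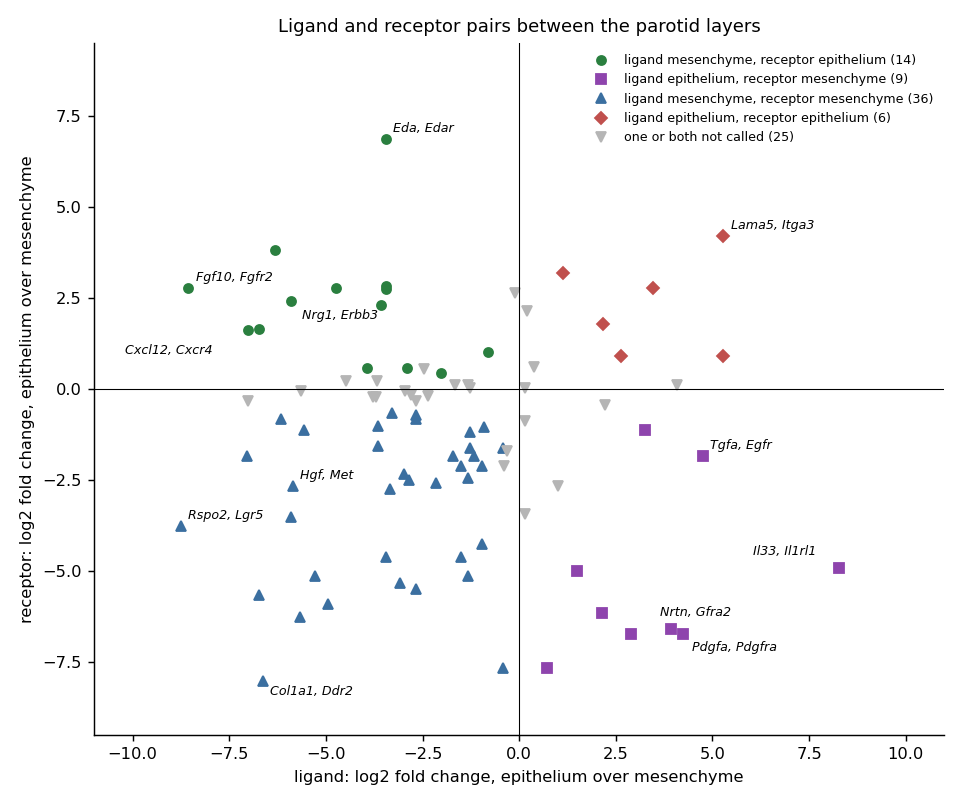
Log2 fold change, epithelium over mesenchyme, of the ligand (x axis) and of the receptor (y axis) for the pairs with both genes tested, with symbols for the class of the pair. The 14 pairs at upper left have the ligand higher in mesenchyme and the receptor in epithelium, the 9 at lower right the reverse, and the 36 at lower left have both higher in mesenchyme.

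Guidance genes leaned to the mesenchyme, and retinoid genes were called in each direction at shares near those of all genes. Of 43 semaphorin, ephrin, Slit and netrin genes 10 were higher in epithelium and 25 in mesenchyme (median -0.82). Sema3b measured 77.3, 103, 118 and 119.6 CPM in epithelium against 6.76, 4.11, 3.59 and 5.83 CPM, and the plexin Plxna4 averaged 30.3 ± 1.57 against 3.37 ± 1.35 CPM. The receptors Nrp2 (189 ± 52.5 against 0.936 ± 0.996 CPM) and Robo2 (1031 ± 291 against 22.6 ± 3.98 CPM) were mesenchymal, as were the 8 neuron markers called, whose part in this list was not tested. Of 16 retinoic acid genes 5 were higher in each layer, against 31.4% of all genes in epithelium and 33.5% in mesenchyme. Aldh1a2, the enzyme that makes retinoic acid, measured 468, 512, 591 and 788 CPM in mesenchyme and 3.94, 0.516, 9 and 0.916 CPM in epithelium. The degrading enzyme Cyp26a1 measured 36.3, 33.7, 21.3 and 23.4 CPM in epithelium against 2.74, 1.7, 2.88 and 2.57 CPM, and Dhrs3, which returns retinaldehyde to retinol, averaged 211 ± 53.2 against 39.2 ± 4.78 CPM. Other enzymes of synthesis and removal went the other way. The synthesis gene Aldh1a1 was low and higher in epithelium, at 0.978 ± 0.307 CPM with 2 counts in mesenchyme (ratio 40.4, counting interval 10.9 to 339), and the degrading enzyme Cyp26b1 was higher in mesenchyme, at 7.57 ± 1.09 against 3.59 ± 1.78 CPM. The binding protein Crabp1 was mesenchymal at 171 ± 45.2 against 5.98 ± 0.823 CPM.

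Homeobox genes of the jaw were called in both directions, with some cluster neighbours on the same side. Whether neighbours go together more than other genes was not tested. Of 25 listed jaw and arch factors 24 were tested. In this list 8 were higher in epithelium and 15 in mesenchyme (median -3.19), against 31.4% and 33.5% of all genes. Irx2 and Irx1, which sit in one gene cluster, averaged 117 ± 20.9 and 24.7 ± 5.63 CPM in epithelium against 0.404 ± 0.271 and 0.201 ± 0.2 CPM. Dlx3 and Dlx4, an adjacent pair, averaged 18.8 ± 1.54 and 7.29 ± 0.697 CPM in epithelium against 2.21 ± 0.688 and 0.378 ± 0.112 CPM. Dlx5 and Dlx6, another adjacent pair, were mesenchymal at 194 ± 31.8 and 14.7 ± 6.21 CPM against 2.14 ± 0.64 and 0.0686 ± 0.0597 CPM, as was Dlx1 at 37.2 ± 11.7 against 0.181 ± 0.103 CPM. Tbx15 averaged 96.6 ± 16.8 CPM in mesenchyme against 0.786 ± 0.449 CPM, and of 9 T-box genes tested 8 were higher in mesenchyme and none in epithelium. HOX genes were nearly silent: of 15 listed, 3 passed the count filter, and Hoxd1 reached 1.9 ± 0.843 CPM in mesenchyme with 2 counts in epithelium (ratio 84.1, counting interval 22.9 to 701).

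Growth and biosynthesis genes were higher in epithelium. Of 40 cell cycle and DNA replication genes 36 were higher in epithelium and none in mesenchyme (median 1.14), or 1 in mesenchyme without mesenchyme replicate 4. Ccnb1, the mitotic cyclin, measured 463, 355, 364 and 350.1 CPM against 125, 133, 119 and 82.6 CPM, and the kinesin Kif20a averaged 231 ± 31.5 against 63.7 ± 15.3 CPM. The S phase regulator E2f1 was not called, at 42.9 ± 1.78 and 45.6 ± 8.72 CPM. In ribosome biogenesis 21 of 23 were higher in epithelium (median 1.09), such as Dkc1 (309 ± 32.3 against 116 ± 17.2 CPM) and Myc, a factor known to activate such genes (363 ± 54.6 against 81 ± 21 CPM). Its relative Mycn was mesenchymal, at 14.2 ± 4.14 against 1.43 ± 0.558 CPM. Genes of ribosomal proteins, taken by symbol, were higher in epithelium for 73 of 81 with a median of 0.58. Of 24 glycolysis and hypoxia genes 14 were higher in epithelium (median 0.93). The phosphofructokinases divided by isoform, with Pfkl at 859.6 ± 153 CPM in epithelium against 171 ± 15.9 CPM and Pfkp at 30.7 ± 6.7 CPM in mesenchyme against 11.2 ± 2.22 CPM. Of 27 nuclear genes of the respiratory chain 14 were higher in epithelium, against 31.4% of all genes, with a median of 0.28. Of 10 genes in mitochondrial DNA 7 were not called. Of 25 sterol and fatty acid genes 17 were not called (median -0.07).

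Imprinted genes, among them the cell cycle inhibitor Cdkn1c, were mostly higher in mesenchyme. Of 18 tested G1 cyclins and inhibitors 9 were higher in mesenchyme and 4 in epithelium (median -0.91), against 33.5% and 31.4% of all genes. That list joins cyclins and inhibitors, so its count does not speak for inhibitors alone. Cdkn1c, itself imprinted, measured 2596, 3474, 2842 and 3374 CPM in mesenchyme against 528, 498, 672 and 557 CPM (log2 fold change -2.45 ± 0.13). Of 24 imprinted genes 18 were higher in mesenchyme and 4 in epithelium (median -2.23), and they summed to 17295.0 ± 1055.8 CPM in mesenchyme and 5316.1 ± 187.5 CPM in epithelium. Mest measured 1809, 1765, 1234 and 1275 CPM against 56.5, 72.9, 66.6 and 94.3 CPM, the zinc finger factor Plagl1 averaged 577 ± 53 against 38.6 ± 10.8 CPM and Ndn, necdin, 1023 ± 209 against 129 ± 10.6 CPM. Snrpn was an exception, at 31.7 ± 2.22 CPM in epithelium and 13.8 ± 0.893 CPM in mesenchyme. Genes expressed from the maternal and from the paternal copy were both among those higher in mesenchyme.

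Secretory differentiation was scarcely visible at this stage. Of 28 listed genes of salivary products and of the secretory pathway 18 passed the filter, and Aqp5, Bpifa1, Bpifa2, Dcpp1, Dcpp2, Smgc, Muc19, Prol1, Folr1 and Pip did not. Wfdc18, a small secreted protein, measured 30.3, 15.1, 41.7 and 44.1 CPM in epithelium against 1.4, 2.79, 4.62 and 1.73 CPM. Agr2, a protein disulfide isomerase of secretory cells, averaged 0.481 ± 0.161 CPM with no count in mesenchyme (at least 13.5-fold). The salivary amylase gene Amy1, which has near-identical copies, was below 1 CPM in both layers, at 0.207 ± 0.0588 in epithelium and 0.459 ± 0.283 in mesenchyme, with overlapping libraries and a call that 5 of the 8 leave-one-out fits lost (adjusted p up to 0.187, without mesenchyme replicate 3). The secretory regulators Creb3l1 (119 ± 25.8 against 2.99 ± 1.62 CPM) and Xbp1 (263 ± 54 against 154 ± 35.1 CPM) were higher in mesenchyme. Some transport genes of ducts and acini were already epithelial: the potassium channel Kcnn4 averaged 28 ± 6.26 against 0.82 ± 0.346 CPM, whereas the cotransporter Slc12a2 was not called at 141 ± 22 and 114 ± 11.5 CPM.

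Genes named for cartilage were a further epithelial group. Of 14 listed cartilage and bone markers 9 were tested, and 5 were higher in epithelium and 2 in mesenchyme (median 2.01). Col9a1, a partner of collagen II, measured 308, 361, 412 and 362 CPM in epithelium against 4.94, 3.34, 3.04 and 1.35 CPM, and Runx2, a factor of bone, averaged 27.2 ± 3.81 against 1.85 ± 0.883 CPM. The aggrecan gene Acan, the main proteoglycan of cartilage, was low at 0.899 ± 0.774 CPM with 3 counts in mesenchyme (ratio 24.7, counting interval 8.15 to 122), and the osteoblast factor Sp7 was mesenchymal at 1.79 ± 0.323 against 0.0946 ± 0.131 CPM.

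Stress and immune genes differed as well. Of 20 immediate early and heat shock genes 12 were higher in mesenchyme and 3 in epithelium (median -1.45). Fos measured 859, 927, 637 and 592 CPM in mesenchyme and 99.4, 39.7, 190.3 and 246 CPM in epithelium, with a wide spread within epithelium, and Klf4 averaged 121 ± 23 against 10.2 ± 3.77 CPM. In the antigen presentation list 9 of 17 were higher in mesenchyme and 3 in epithelium. B2m averaged 186 ± 26.6 against 63.2 ± 4.86 CPM, with macrophage markers also higher in mesenchyme and their part not tested, and the interferon-induced membrane protein gene Ifitm3 was epithelial at 552, 396, 518 and 510.4 CPM against 39.3, 18.4, 18.8 and 14.2 CPM.

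Taken by symbol or gene type, some classes lay on one side. Protocadherins were higher in mesenchyme for 49 of 58 genes and in epithelium for none (median -1.92), ADAMTS proteases for 16 of 23 against 3, and collagens for 26 of 42 against 8. Claudins were higher in epithelium for 10 of 13. Zinc finger genes with Zfp symbols were called higher in epithelium for 110 of 362 and in mesenchyme for 101, and kinesins for 14 and 13 of 35, shares nearer to those of all genes. Processed pseudogenes were called higher in epithelium for 247 of 742 (33.3%) and in mesenchyme for 34 (4.58%), against 33.7% and 36.5% of protein-coding genes. Reads of processed pseudogenes cannot be fully told from those of their parent genes, many of which encode ribosomal proteins, so these calls are uncertain.

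The layer difference was then set against that of the submandibular gland, with a test of the difference between the glands in the same fit. It was called for 20.9% of genes: for 1577 (8.67%) the epithelium-minus-mesenchyme value was larger in parotid and for 2222 (12.2%) it was smaller. That imbalance depended on the settings, with 1814 and 1912 under upper quartile scaling, 1479 and 1662 with no filter and 1864 and 1841 with a filter of 1 CPM in 4 libraries. Of the genes called higher in parotid epithelium 1196 (20.9%) had such a call and 164 of them were called the opposite way in submandibular gland, and of those higher in parotid mesenchyme 1719 (28.2%) and 189. Most layer differences therefore gave no detectable difference between glands, which does not show that they were equal. Among genes with this call and at least 10 mean CPM in a parotid layer, Areg had the largest change. Its log2 fold change was -7.03 in parotid and 6.07 in submandibular gland (difference -13.10, adjusted p = 3.12e-07). The growth factor receptors Met (-2.68 and 2.94, difference -5.62, adjusted p = 4.19e-09) and Egfr (-1.86 and 1.04, difference -2.90, adjusted p = 2.82e-06) likewise changed sides. Leaving out any one of the 16 libraries kept the call of these 3 differences, with -13.81 to -12.35 for Areg.

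A further group was called between layers in parotid and not in submandibular gland. The actin-linked gene Crybg1 measured 31.5, 43.9, 35 and 29.4 CPM in the epithelium and 0.215, 1.21, 0.079 and 0.327 CPM in the mesenchyme of the parotid, a log2 fold change of 6.33 against 0.18 in submandibular gland (7.42 in parotid without mesenchyme replicate 2). The water channel Aqp4 (6.80 against 0.66) and Fam107a (5.96 against 0.28) were alike. The synaptic vesicle protein Syt4 (-7.73 against 1.08), the protease Adamts16 (-7.79 against 0.64), the histamine receptor Hrh1 (-6.88 against 1.45) and the polarity adaptor Lin7a (-8.05 against 0.15) were mesenchymal in parotid. The factors Gata2 (1.59 against -4.83) and Dmrt2 (-5.22 against 3.07) and the enzyme Cyp2s1 (1.64 against -3.99) changed sides, and Adam23 was mesenchymal in both (-1.80 against -8.46). The parotid value of Dmrt2 was -7.26 without epithelium replicate 4, where most of its epithelial counts lay, and that of Adamts16 was -8.72 without the same library. Genes described above also differed between glands. The collagen chains Col4a6 (8.84 against 3.51) and Col4a5 (4.50 against 1.04), Edar (6.85 against 2.33) and Adamts18 (9.20 against 5.03) had a larger epithelial excess in parotid, and Bmp7 (3.14 against 0.05) was level in submandibular gland. Nrg1 had a larger mesenchymal excess in parotid (-5.91 against -1.32), while Fst (-6.75 against 0.68), Bmp3 (-9.08 against -0.89) and Sulf1 (-4.92 against 1.06) were called in parotid alone, with the difference itself called for each. Col14a1 was not called in parotid and was higher in epithelium in submandibular gland (-0.39 against 5.69, difference -6.08).

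**Figure D5:**
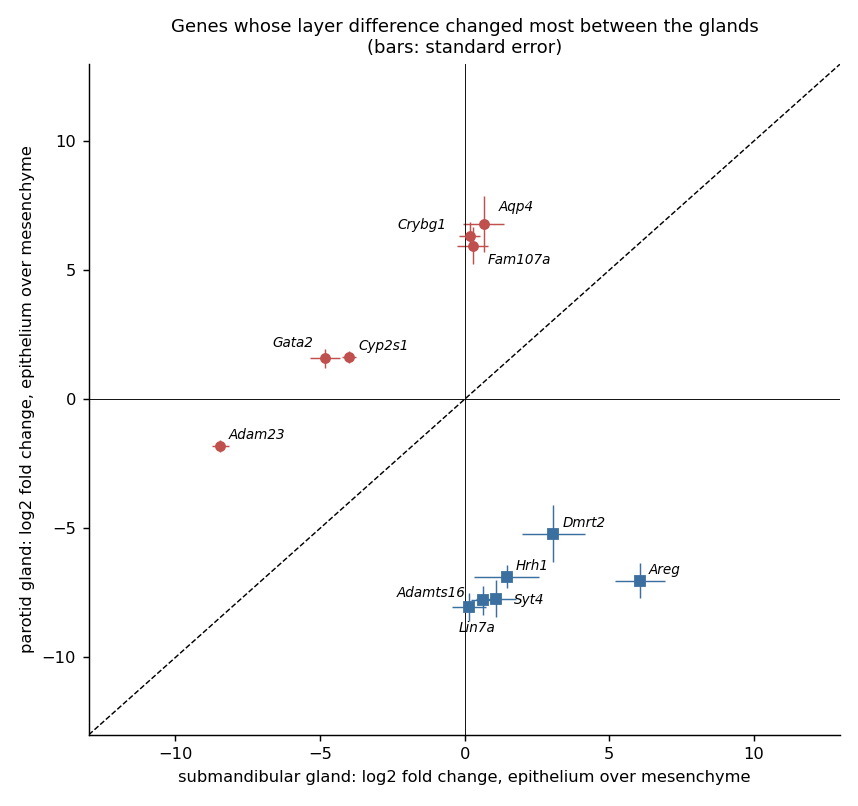
Log2 fold change, epithelium over mesenchyme, in submandibular gland (x axis) and parotid gland (y axis), with approximate standard errors. The 6 genes per direction have the largest difference between glands, among those of at least 10 mean CPM in a parotid layer. Points off the dashed line of equal values are all called; Areg, at -7.03 in parotid and 6.07 in submandibular gland, lies farthest from it.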

How the data were processed

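Bulk RNA was measured in 4 libraries of each layer of each gland. Per the labels' protocols RNA was amplified with SMART-Seq v4, made into Nextera XT libraries and sequenced on a NextSeq 500, steps that do not mark strand, so reads of antisense and overlapping genes cannot be told apart. Per the submitters' processing notes, reads were aligned with STAR 2.5.2a to GRCm38 (mm10). For the read counter and the annotation no source used here gives a name. The deposited counts are whole reads per gene and were used as they stand. The deposited normalised signal was used only to check the counts and was not tested.

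Of 48709 genes, 18191 passed edgeR's filterByExpr over the 16 libraries. They were fitted together for all 4 groups with TMM scaling and edgeR 4.0.16 (glmQLFit, glmQLFTest, R 4.3.3), and p-values were Benjamini-Hochberg adjusted over all of them. The layer contrast in parotid and its difference from that in submandibular gland were tested. Nothing in the labels says which embryos gave a library, so p-values measure the spread between these samples. Intervals on ratios are 95% exact counting intervals, cover counting error only, and a layer with no count was set to 3 counts in all. Alternatives were edgeR's RLE and upper quartile scaling, DESeq2 1.42.0, limma 3.58.1 voom, other filters, a replicate block, the 8 parotid libraries alone, glmTreat and leaving out each library.

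The comparison, the gene lists and the pairs were chosen with earlier results of these data known. Named genes were the 10 per direction with the largest fold among those of at least 10 mean CPM, and the 10 with the largest CPM difference. Both sets were limited to called genes whose libraries did not overlap between the layers. Further ones were up to 6 called members per direction and any uncalled member of each list, and members of the pairs. The 6 per direction with the largest difference between glands, among genes of at least 10 mean CPM in a parotid layer, were also named. Others are cell type markers or were chosen after their values were seen. A gene of the lists is not reported here by name.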

Additional observations from a re-analysis of the deposited data

Results flagged for a closer look

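A library far from the other 3 of its layer, by Dixon's test at the 5% level, was found in 30 groups of 4. At most 482 were examined, since groups with few counts were left out, and chance gives about 1 in 20. In mesenchyme replicate 1 the high values were those of epithelial genes, the same library that held the highest sum of epithelial markers, and the part of that sum in them was not tested. They were Cdh1 (5.26 CPM against 0 to 0.767 CPM), Cldn4 (0.858 CPM against 0 to 0.14 CPM), Dsp (2.04 CPM against 0.079 to 0.384 CPM), Krt15 (18.4 CPM against 0.0395 to 2.08 CPM), Pkp3 (0.698 CPM against 0.0395 to 0.0548 CPM), Rab25 (0.537 CPM against 0 to 0.0395 CPM), Ripk4 (1.02 CPM against 0 to 0.164 CPM) and St14 (1.5 CPM against 0.187 to 0.384 CPM). In epithelium replicate 4 the values that stood apart were Cd177 (12.7 CPM against 20.5 to 21.6 CPM), Cxcl12 (14 CPM against 3.42 to 5.23 CPM), Des (1.01 CPM against 0 to 0 CPM), Dmrt2 (1.54 CPM against 0 to 0.17 CPM), E2f1 (45.6 CPM against 41.8 to 42.3 CPM) and Ptch1 (16.8 CPM against 14.5 to 14.8 CPM). That library also held 501 CPM of erythroid markers against 63.4 to 122.2 CPM and 61 CPM of muscle markers against 7.6 to 16.3 CPM, and their part was not tested. The macrophage markers summed to 97.3 CPM in mesenchyme replicate 3, below the 164.6 to 167.9 CPM of the others. Other epithelial values that stood apart were Barx2 in replicate 1 (75 CPM against 49.4 to 53.7 CPM), Ccnb1 in replicate 1 (463 CPM against 350.1 to 364 CPM), Cpm in replicate 1 (779 CPM against 1106 to 1150 CPM), Egfr in replicate 1 (41.8 CPM against 33.2 to 34.2 CPM), Fgfr4 in replicate 2 (1.31 CPM against 0.241 to 0.382 CPM), Il33 in replicate 2 (66.4 CPM against 184 to 190.1 CPM), Itga1 in replicate 1 (0 CPM against 0.235 to 0.283 CPM), Itga9 in replicate 1 (347 CPM against 417 to 423 CPM) and Notch2 in replicate 3 (15 CPM against 22.4 to 22.4 CPM). Other mesenchymal values that stood apart were B2m in replicate 4 (225 CPM against 170.2 to 176 CPM), Rspo2 in replicate 3 (81.1 CPM against 40.3 to 44.5 CPM), Snai2 in replicate 4 (83.5 CPM against 102 to 104 CPM) and Tbx15 in replicate 1 (122 CPM against 86.3 to 89.3 CPM).

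For 89 of the genes named, the epithelium-minus-mesenchyme log2 difference was tested to differ between the parotid and the submandibular gland (edgeR's quasi-likelihood test, Benjamini-Hochberg adjusted). The value given is parotid minus submandibular. It was positive for Acan (8.73), Adam23 (6.65), Gata2 (6.42), Crybg1 (6.15), Aqp4 (6.13), Fam107a (5.67), Cyp2s1 (5.64), Col4a6 (5.33), Pthlh (4.76), Edar (4.52), Il33 (4.36), Adamts18 (4.17), Col4a5 (3.46), Plxna4 (3.38), Foxp2 (3.20), Fgf7 (3.16), Bmp7 (3.09), Lama1 (2.99), Aldh1a1 (2.95), Col9a1 (2.75), Amy1 (2.60), Tgfa (2.53), Elf3 (2.51), Cyp26a1 (2.17), Axin2 (1.89), Lamb1 (1.83), Wnt5b (1.68), Epcam (1.64), Itga8 (1.56), Cdkn1c (1.46), Meis2 (1.42), Nid1 (1.38), Meis1 (1.32), Nrtn (1.10), Vcan (1.04), Fgfr2 (0.99), Pfkl (0.74) and Snrpn (0.70).

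It was negative for Areg (-13.10), Krt4 (-11.81), Syt4 (-8.81), Adamts16 (-8.43), Hrh1 (-8.33), Dmrt2 (-8.29), Lin7a (-8.20), Bmp3 (-8.18), Dsc3 (-8.17), Fst (-7.43), Slc5a7 (-6.45), Col14a1 (-6.08), Sulf1 (-5.98), Luzp2 (-5.65), Met (-5.62), Krt15 (-5.06), Col5a3 (-5.03), Nrg1 (-4.60), Wnt2 (-4.46), Barx1 (-4.40), Ackr3 (-4.07), Gli1 (-3.88), Dlk1 (-3.55), Fgfbp1 (-3.51), Mmp16 (-3.03), Egfr (-2.90), Osr2 (-2.78), Sp7 (-2.73), Fgf9 (-2.69), Bmp4 (-2.63), Acta2 (-2.24), Postn (-2.16), Slc12a2 (-2.13), Notch2 (-1.97), Eda (-1.73), Mycn (-1.66), Hes1 (-1.55), Lef1 (-1.51), Timp3 (-1.48), Ednra (-1.46), Notch1 (-1.39), Agrn (-1.36), Spry4 (-1.21), Ldha (-1.10), Jup (-1.07), Dusp6 (-1.05), Ptn (-0.90), B2m (-0.86), Sfrp2 (-0.85), Eno1 (-0.63) and Ndn (-0.56).

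Some of these differences rest on few libraries or on the settings. In at least one alternative the call was lost for Acta2, Bmp4, Elf3, Fgfbp1, Gli1, Jup, Krt15, Krt4, Lef1, Ndn, Osr2, Postn, Sfrp2, Slc5a7, Sp7, Tgfa and Wnt2. Without parotid mesenchyme replicate 1 the value was -8.02 for Krt4 (adjusted p = 0.989) and -2.84 for Krt15 (adjusted p = 0.146). Without submandibular epithelium replicate 3 it was -1.53 for Gli1 (adjusted p = 0.373), -1.38 for Wnt2 (adjusted p = 0.413) and -1.79 for Osr2 (adjusted p = 0.0568).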

How the results depend on the processing

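The layer calls in parotid moved most with the threshold. Testing against a 1.5-fold change with glmTreat left 2888 genes higher in epithelium in place of 5712, and 4225 in place of 6092 in mesenchyme, since small differences no longer count. Over the other scalings, tools, filters and sample choices the counts were 5223 to 5796 and 5444 to 6646, and no gene was called in the opposite direction. The difference between the glands moved more: the counts were 1371 to 1990 larger and 1662 to 2454 smaller in parotid, and 78.7% of the calls were kept with no filter, 83.4% with the replicate block and 91.7% with limma-voom. With 1 library left out the counts were 5106 to 5627 higher in epithelium and 5876 to 6094 higher in mesenchyme, 2248 to 2710 and 4076 to 4154 at 2-fold or more, and 1301 to 1754 larger and 1851 to 2252 smaller in parotid between the glands. Of 231 named genes 16 changed side of the threshold in the layer comparison in at least one setting and 17 of the 89 called differences between glands did, none with a reversed call. Whether replicate numbers pair the layers cannot be told, since layers of the same glands need not deviate alike from their group means. Correlations of these deviations were -0.0319, -0.113, -0.00613 and -0.117 for same-numbered parotid libraries. For submandibular ones they were 0.215, 0.218, 0.0507 and 0.0211. Differently numbered libraries reached 0.207 in parotid and 0.214 in submandibular gland. A fit with the replicate block gave 5537 genes higher in epithelium and 5966 in mesenchyme, and 1371 larger and 2008 smaller in parotid between the glands, with 8 of the 89 named differences lost. Folds of genes near 0 in the lower layer moved most when a library was left out: without mesenchyme replicate 1 the log2 fold change was 9.71 in place of 7.76 for Pkp3, 9.19 in place of 6.45 for Rab25 and 9.26 in place of 7.07 for Cldn4, and without epithelium replicate 4 it was -8.26 in place of -6.45 for Gli1 and -8.38 in place of -7.01 for Igf1.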
